A study of Mus musculus with 81 samples.

Results

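The samples described here are sorted A2 cells of the mouse yolk sac at embryonic day 9.5, from Irf8 knockout embryos and from wild-type embryos. They were chosen by their labels alone, and they are 6 of the 80 samples of the series, 3 of each genotype. The labels call A2 a yolk sac progenitor population and give its cell type as erythro-myeloid progenitors. Of 4 knockout arrays, 2 carry the number of replicate 2. The labels do not say whether the second of them is a repeat run or a further sample, and they were averaged and counted as 1 sample. The series holds 81 arrays in 27 groups of progenitors and macrophages from E8 to 6 weeks of age, and its design asks what Irf8 does to macrophage populations. A2 was set beside 3 other populations sampled in both genotypes with 3 samples each, namely yolk sac A1 at E9.5, microglia at E14 and Kupffer cells, the macrophages of the liver, at E14. E8 erythro-myeloid progenitors, wild type, served as an early level. The knockout allele, whether it is constitutive, the strain background, the sorting gate and the number of embryos behind a sample do not appear in the labels used here. Nothing in the labels says that replicates came from separate animals, so how far the spread between samples is technical is not known. The p-values set a change against the spread within groups, pooled for each gene over all 27 groups and not A2 alone.

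Irf8 belongs to the interferon regulatory factors and acts in myeloid cells with partners such as the Ets factor PU.1, encoded by Spi1. These factors read repeats of GAAA, alone or next to the GGAA core of an Ets factor. In the yolk sac, erythro-myeloid progenitors give rise to the A1 and then the A2 stage, which loses Kit, the receptor for stem cell factor, and gains Cx3cr1, the receptor for fractalkine. A2 cells are known as the immediate precursors of microglia and of other fetal macrophages.

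The values were log2 array signals, so a difference of 1 is a doubling, and changes are given as knockout minus wild type with ± the standard error of the limma fit. Of all values in the table, 50% lay below 3.041 log2, which marks a gene near the bottom of the scale. Over 13243 probes the A2 arrays correlated with each other at 0.9714 to 0.9804 within a genotype, at 0.9828 between the 2 arrays of knockout replicate 2 and at 0.9297 to 0.9411 between genotypes. The array medians of A2 lay between 2.962 and 2.996 log2 in the knockout and between 2.955 and 2.98 log2 in the wild type.

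The population matched its label in relation to its neighbours. In the wild type, Kit averaged 5.05 ± 0.31 log2 in A2 and 8.54 ± 0.13 log2 in A1 (SD, n = 3 each). Cx3cr1 averaged 10.23 ± 0.22 log2 in wild-type A2 and 7.18 ± 0.56 log2 in wild-type A1. Among the progenitor markers, Gata1, an erythroid and megakaryocytic factor, was near the bottom of the scale in A2, at 2.96 ± 0.25 log2 in the knockout and 3.02 ± 0.43 log2 in the wild type. Wild-type A2 was also above wild-type A1 in macrophage markers, with Csf1r, the receptor for the macrophage growth factor CSF1, at 9.57 ± 0.23 against 7.20 ± 0.26 log2.

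Irf8 itself read 9.26, 8.98 and 8.58 log2 in the knockout samples, against 8.60, 8.64 and 8.78 log2 in the wild type. The genotypes overlapped, and the change of 0.27 ± 0.25 did not pass the test (adjusted p = 0.64, limma). The probe's place in the gene and the deleted stretch do not appear in the labels used here, so this level is no check of the genotype labels.

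The loss of Irf8 went with a large fall of macrophage genes in A2 and with a smaller rise of progenitor genes. Of 17099 genes tested, 1718 passed an adjusted p of 0.05 in limma, which is 10.0%. Higher in the knockout were 644 genes (3.77%) and lower were 1074 (6.28%), while the median change over all genes was 0.02. The count of rises was 361 without knockout replicate 3 and 413 without wild-type replicate 1, with 822 and 840 falls. The falls were also deeper: 546 genes fell by more than 2-fold and 49 by more than 8-fold, whereas 238 rose by more than 2-fold and 1, Mrgpra2a, by more than 8-fold. The genotypes did not overlap for 1670 of the 1718 genes, against 30.7% of all genes tested, of which 16.1% lay higher in the knockout and 14.6% lower.

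Promoter windows were searched for the repeats that Irf factors are known to bind, and the 4 among the 15 largest falls that carried one are shown. The motifs were GAAA, any 2 bases and GAAA, then the Ets and Irf composite of GGAA, any 2 bases and GAAA, and its other order of GAAA, any 2 bases and GGAA, on both strands of 300 bases around the RefSeq gene start. A window was at hand for 9 of the 15 largest falls, and Ctss, Timd4, Cybb and Clec4a1 had a match. Of the 15 largest rises, 11 had a window and 0 had a match. Stretches of these 4 promoters and, as a match in a gene that rose, of Itga2b are shown 5′ to 3′ on the strand of the gene (RefSeq, GRCm38.p6), with the motif or its reverse complement in capitals. Ctss lies at chr3:95526725-95526785 on the plus strand, Timd4 at chr11:46810687-46810776 (plus), Cybb at chrX:9469325-9469532 (minus), Clec4a1 at chr6:122921599-122921688 (plus) and Itga2b at chr11:102469952-102470047 (minus).
Ctss: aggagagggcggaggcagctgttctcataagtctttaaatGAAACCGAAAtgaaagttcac
Timd4: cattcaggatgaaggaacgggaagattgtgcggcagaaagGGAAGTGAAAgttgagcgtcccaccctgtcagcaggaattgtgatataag
Cybb: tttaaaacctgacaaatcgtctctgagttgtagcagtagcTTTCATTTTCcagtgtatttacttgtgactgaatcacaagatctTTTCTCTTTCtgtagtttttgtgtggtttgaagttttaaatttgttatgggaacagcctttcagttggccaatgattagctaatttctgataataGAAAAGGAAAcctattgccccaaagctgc
Clec4a1: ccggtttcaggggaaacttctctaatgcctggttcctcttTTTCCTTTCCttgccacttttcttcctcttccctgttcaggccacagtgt
Itga2b: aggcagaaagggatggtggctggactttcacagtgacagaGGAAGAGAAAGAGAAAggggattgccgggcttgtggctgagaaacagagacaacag

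In Ctss and Timd4 the match read along the gene, in Clec4a1 on the opposite strand, and Cybb held 3 matches, of which 2 read on the opposite strand. The 2 matches of Itga2b overlapped each other. Over all genes, 120 of 866 genes that fell and had a window (13.9%) held any of the 3 motifs. The share was 48 of 500 genes (9.6%) among those that rose, 1212 of 13208 (9.18%) among all tested genes and 8.37% of all 32851 windows. A match is a description of the letters and does not show binding.

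Genes of the macrophage programme were the most affected group by median change. Of 40 macrophage core genes tested, 26 fell, 0 rose and 14 did not pass, with a median change of -1.64. Their mean level was 5.65, 5.62 and 5.45 log2 in the knockout samples, against 7.44, 7.36 and 7.15 log2 in the wild type. Timd4, a phosphatidylserine receptor for dying cells, had 2.03, 2.32 and 2.88 log2 in the knockout, against 7.11, 6.92 and 6.54 log2 in the wild type (change -4.45 ± 0.40, adjusted p = 8.29e-14). Msr1, a scavenger receptor for modified lipoproteins, had 2.58, 2.54 and 2.41 log2 in the knockout and 7.18, 6.92 and 6.77 log2 in the wild type (change -4.45 ± 0.39, adjusted p = 3.51e-14). Every knockout sample of both genes lay below 3.041 log2. Lyve1, a hyaluronan receptor of fetal macrophages, had 4.38, 3.38 and 3.79 log2 in the knockout, against 8.08, 8.06 and 7.17 log2 in the wild type (change -3.92 ± 0.54, adjusted p = 6.67e-08). Aif1, which encodes the actin-binding protein Iba1, changed by -3.10 ± 0.33 and Grn, the precursor of progranulin, by -3.07 ± 0.14.

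The classical surface markers fell less far than these and stayed measurable. Csf1r had 8.08, 7.97 and 7.74 log2 in the knockout, against 9.67, 9.74 and 9.31 log2 in the wild type (change -1.64 ± 0.18, adjusted p = 5.74e-11). Adgre1, which encodes F4/80, changed by -1.62 ± 0.26, Itgam, which encodes CD11b, by -1.55 ± 0.25, Fcgr1, a high-affinity Fc receptor, by -1.74 ± 0.26, and Mertk, a receptor for dying cells, by -1.64 ± 0.33. Mrc1, the mannose receptor, changed by -2.45 ± 0.38, with knockout replicate 3 the lowest at 6.09 log2. Cx3cr1 had 9.47, 9.77 and 9.11 log2 in the knockout and 10.39, 10.33 and 9.98 log2 in the wild type. The genotypes did not overlap there, yet the change of -0.78 ± 0.50 did not pass the test (adjusted p = 0.402). Ptprc, the leukocyte marker CD45, was at 8.76 ± 0.05 log2 in the knockout and 8.95 ± 0.09 log2 in the wild type (SD, n = 3 each; adjusted p = 0.487). In bulk samples such as these, fewer cells of a type and less RNA per cell cannot be told apart.

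Most lysosomal genes fell as well. Of 30 lysosome and cathepsin genes, 21 fell and 0 rose, with a median change of -0.86. Ctss, which encodes the antigen-processing protease cathepsin S, had 3.81, 3.09 and 3.94 log2 in the knockout, against 8.84, 8.51 and 8.64 log2 in the wild type (change -5.05 ± 0.24, adjusted p = 3.23e-26). Ctsb, which encodes cathepsin B, had 6.48, 6.94 and 6.44 log2 in the knockout and 10.33, 10.20 and 9.60 log2 in the wild type (change -3.42 ± 0.16). Both proteases were lower in every knockout sample than in any wild-type sample, and so were Lgmn, an asparaginyl protease that trims cathepsins (-3.46 ± 0.25), and Psap, the precursor of sphingolipid activators (-2.54 ± 0.15). Slc40a1 and Cybb were among the 15 largest falls. Slc40a1, the iron exporter ferroportin, had 2.58, 2.62 and 2.34 log2 in the knockout and 8.36, 8.47 and 8.06 log2 in the wild type (change -5.78 ± 0.34, adjusted p = 9.63e-22). Cybb, the catalytic subunit of the phagocyte NADPH oxidase, had 4.87, 4.01 and 2.43 log2 in the knockout, against 8.21, 8.31 and 7.76 log2 in the wild type (change -4.32 ± 0.44, adjusted p = 5.52e-12).

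**Figure D1:**
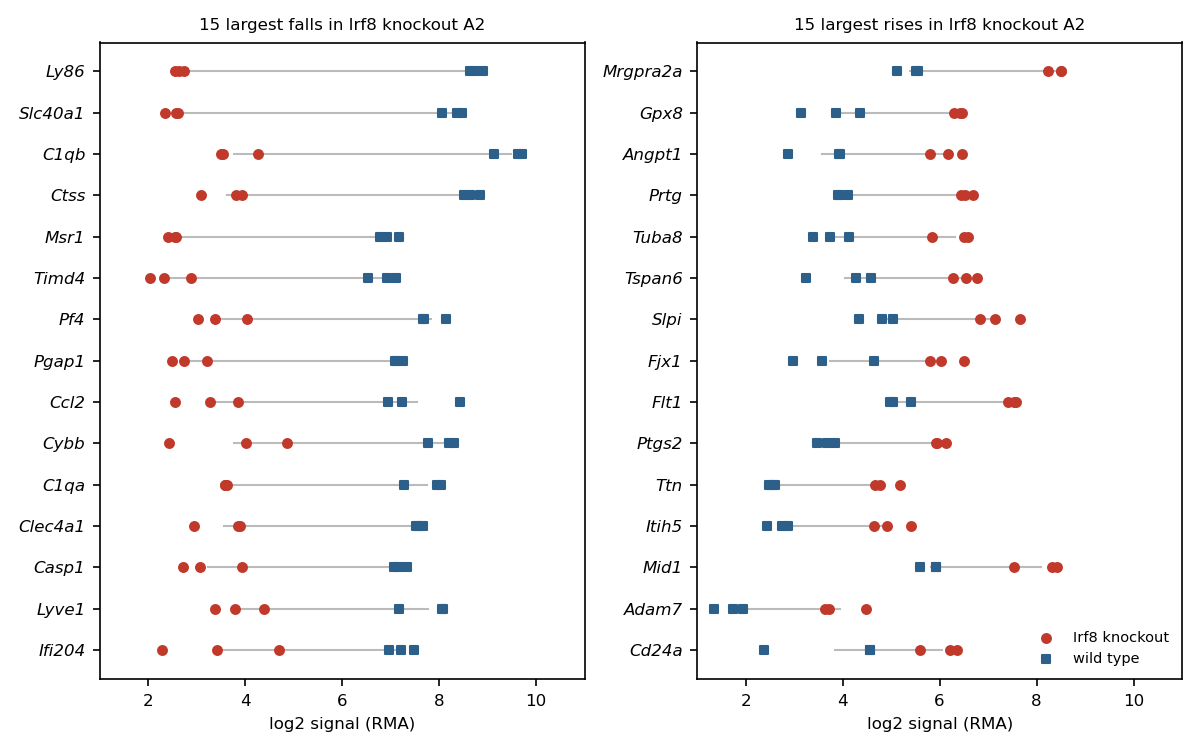
Log2 signal of each A2 sample (red circles, Irf8 knockout; blue squares, wild type; n = 3 each) for the 15 largest falls on the left and the 15 largest rises on the right, with a grey line joining the means. The genotypes do not overlap for any gene shown, which is how the genes were picked; Ly86 lies at 2.55 to 2.73 in the knockout and 8.63 to 8.91 in the wild type, and Mrgpra2a at 8.24 to 8.51 in the knockout and 5.12 to 5.55 in the wild type.

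Of 35 genes of pattern recognition, which hold Toll-like receptors, their accessory proteins and C-type lectins, 22 fell and 0 rose, with a median change of -1.30. Ly86, which encodes MD-1, the partner of the Toll-like receptor homologue RP105, had 2.73, 2.63 and 2.55 log2 in the knockout, against 8.91, 8.74 and 8.63 log2 in the wild type. Its change of -6.13 ± 0.62 (adjusted p = 6.64e-12) was the largest fall of any named gene. Tlr13, an endosomal receptor for bacterial ribosomal RNA, had 2.59, 2.66 and 2.39 log2 in the knockout and 6.26, 5.69 and 5.70 log2 in the wild type (change -3.33 ± 0.30). Clec7a, the beta-glucan receptor Dectin-1, changed by -3.04 ± 0.21, Clec4a1 by -4.02 ± 0.33 and Clec4a3 by -3.67 ± 0.33, the last 2 being lectins of the DCIR group. Tlr4, the receptor for lipopolysaccharide, changed by -1.93 ± 0.25. Casp1, the protease of inflammasomes, had 2.71, 3.94 and 3.06 log2 in the knockout, against 7.16, 7.07 and 7.34 log2 in the wild type (change -3.96 ± 0.27, adjusted p = 2.44e-18). Its substrate Il18, an interferon-gamma inducing cytokine, changed by -2.72 ± 0.32. Of 20 genes that earlier work on other myeloid cells reported as Irf8 targets, 9 fell, 0 rose and 11 did not pass (median -0.47). The 9 include Cybb, Aif1, Il18 and Tlr4. Without overlap, 2 of the 20 lay higher in the knockout and 11 lower, against 16.1% and 14.6% of all genes tested. The direction in which Irf8 was reported to act on each gene was not used, so these counts do not measure agreement with that work.

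All 3 chains of C1q, the recognition molecule of the classical complement pathway, fell. C1qb had 4.26, 3.53 and 3.50 log2 in the knockout, against 9.70, 9.62 and 9.13 log2 in the wild type (change -5.72 ± 0.46, adjusted p = 1.16e-15). The other 2 chains fell as well, with C1qa changed by -4.16 ± 0.31 and C1qc by -3.42 ± 0.39. Cfp, which encodes properdin, a stabiliser of the alternative pathway, changed by -2.13 ± 0.22. In all, 7 of 18 complement and opsonin genes fell and 0 rose, with a median change of -0.48.

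Among 31 chemokines and chemokine receptors, 8 fell and 2 rose (median -0.30). Ccl2, the main ligand that draws monocytes through Ccr2, had 3.84, 3.28 and 2.55 log2 in the knockout, against 8.44, 7.24 and 6.95 log2 in the wild type (change -4.33 ± 0.46, adjusted p = 3.16e-11). Pf4, a CXC chemokine stored by platelets and also made by macrophages, had 4.04, 3.03 and 3.38 log2 in the knockout and 8.15, 7.66 and 7.68 log2 in the wild type (change -4.35 ± 0.58, adjusted p = 3.08e-08). Ccl24, an eotaxin, changed by -3.27 ± 0.47 and Ccr1, a receptor for several CC chemokines, by -3.10 ± 0.43. The 2 that rose were Cxcr2, a neutrophil chemokine receptor (1.34 ± 0.41), and Ccrl2, an atypical receptor named after its values were seen (0.95, adjusted p = 0.031). Neither passed under every removal of 1 sample, where the count of rises was 0 or 1. Of 30 growth factor and cytokine receptors, 12 fell and 3 rose (median -0.50). Il13ra1, a receptor chain for IL-4 and IL-13, changed by -3.53 ± 0.26, Tnfrsf11a, the receptor RANK of macrophage precursors, by -2.25 ± 0.32, and Il6ra by -1.42 ± 0.20. The 3 rises were Kit and, named after their values were seen, the IL-1 receptor Il1r1 (1.88, adjusted p = 0.000363) and its decoy Il1r2 (1.66, adjusted p = 0.00208).

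Inflammatory mediators moved in both directions. Of 18, 3 rose and 2 fell, with a median change of 0.05, against 3.77% and 6.28% of all genes tested. Il1a, Il6, Il10, Il12b and Nos2 were below 3.041 log2 in every wild-type sample, so that a fall could not be read there. Ptgs2, the inducible cyclooxygenase of prostaglandin synthesis, had 5.92, 5.95 and 6.14 log2 in the knockout, against 3.84, 3.46 and 3.68 log2 in the wild type (change 2.34 ± 0.31, adjusted p = 1.87e-08). Il1rn, the antagonist of the IL-1 receptor, changed by 1.57 ± 0.32, and the third rise, Tnf, by 0.95 (adjusted p = 0.0216, named after its values were seen). Besides Il18 the other fall was Tgfb1, at -0.56 ± 0.15.

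Interferon-responsive genes were lower in part. Of 33 interferon-stimulated genes tested, 15 fell, 0 rose and 18 did not pass, with a median change of -0.70. Ifi204, a DNA sensor of the interferon-inducible p200 family, had 4.70, 3.41 and 2.28 log2 in the knockout, against 7.21, 6.97 and 7.49 log2 in the wild type (change -3.76 ± 0.43, adjusted p = 2.61e-10). Phf11b changed by -3.42 ± 0.34 and Parp14, an ADP-ribosyltransferase, by -2.39 ± 0.23. Some widely used interferon markers did not pass. The change was -0.24 for Isg15 (adjusted p = 0.792), -0.70 for Ifit1 (adjusted p = 0.396) and -0.28 for Rsad2 (adjusted p = 0.75). Others passed, among them Mx2 (-1.54, adjusted p = 0.00109) and Oas2 (-1.10, adjusted p = 0.00753). These genes were all named after their values were seen. Rsad2 was at 2.66, 3.36 and 3.11 log2 in the wild type, where an array can read little of a fall. Of 11 interferon-inducible GTPases, 6 fell and 0 rose (median -0.93), led by Gbp7 at -2.16 ± 0.29, and the count was 4 at the lowest when 1 sample was left out. In the family of Irf8 itself and its partners, 4 of 13 tested members fell and 0 rose (median -0.19). These were Irf9 (-1.05 ± 0.24) and Stat2 (-0.75 ± 0.18), which act together in type I interferon signalling, Irf7 (-1.01 ± 0.27), which drives type I interferon genes, and Irf2 (-0.54 ± 0.16). Without knockout replicate 3 the count was 1, Stat2, since Irf9 (adjusted p = 0.0514), Irf7 (adjusted p = 0.148) and Irf2 (adjusted p = 0.0508) did not pass. Irf2 also did not pass without knockout replicate 1, knockout replicate 2 or wild-type replicate 1, where its adjusted p was 0.0623, 0.0659 and 0.223.

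Most antigen presentation genes did not pass the test, and those that passed all fell. Of 18 genes of the MHC class I pathway, 3 fell and 0 rose, namely the peptide transporter subunit Tap1 (-1.23 ± 0.20) and the immunoproteasome subunits Psmb8 (-1.30 ± 0.19) and Psmb9 (-1.12 ± 0.19). Of 12 class II and costimulation genes, H2-DMb2, a chain of a peptide-loading molecule (-2.18 ± 0.36), and Cd86, a costimulatory ligand (-1.45 ± 0.23), fell and 0 rose. Of all genes tested, 6.28% were called lower and 3.77% higher. Without overlap, 8 of the 18 class I genes and 4 of the 12 class II genes lay lower in the knockout and 0 higher. The shares of all genes tested were 14.6% lower and 16.1% higher. Of 28 cell cycle genes, 0 passed in either direction (median -0.04), and their mean level was 8.13, 8.15 and 8.16 log2 in the knockout samples, against 8.17, 8.22 and 8.13 log2 in the wild type. Over all genes limma called 1718, and 3595 had an unadjusted p under 0.05.

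**Figure D2:**
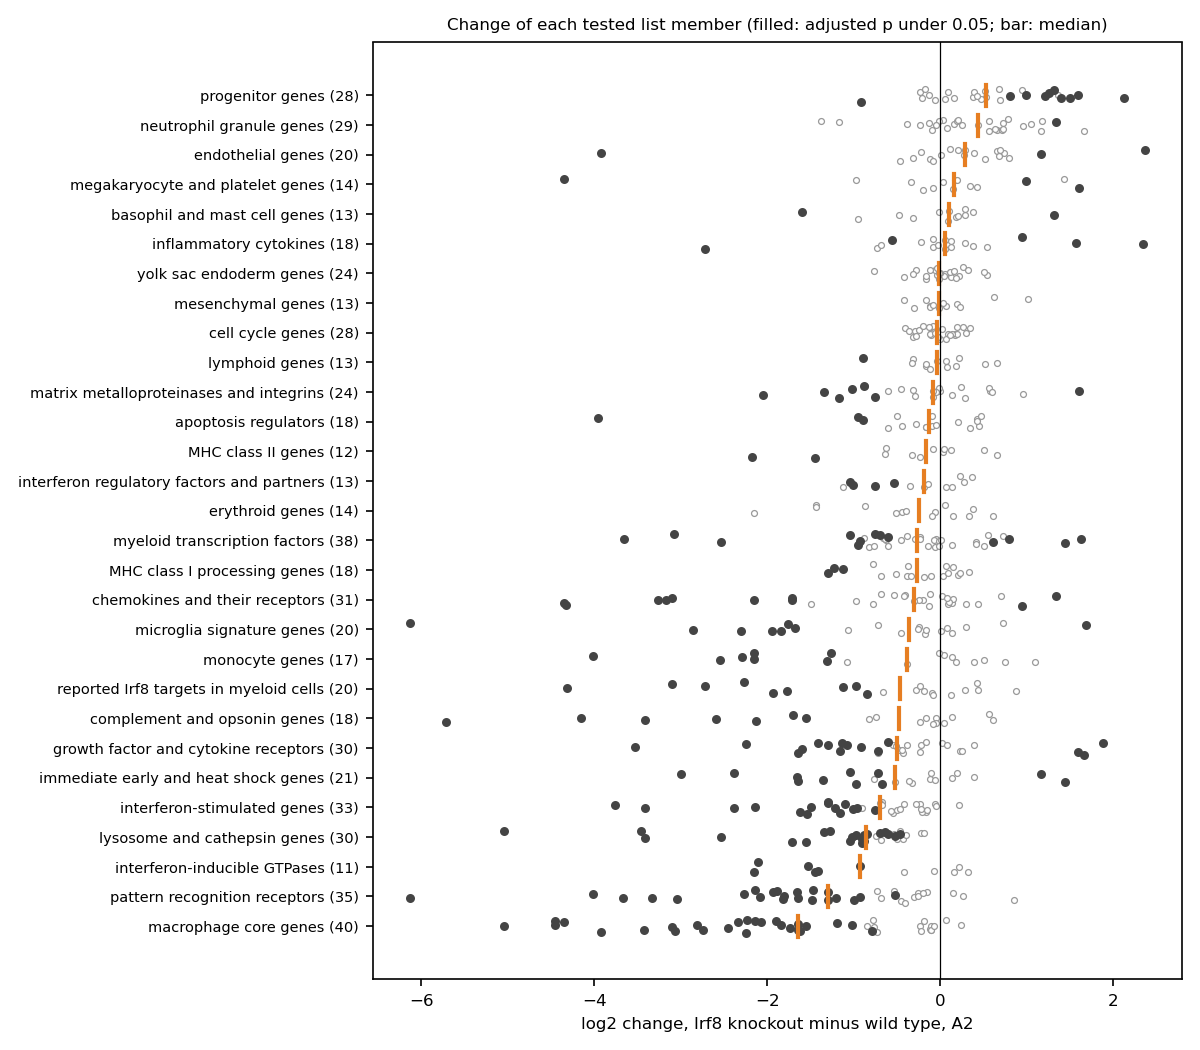
Log2 change in A2, knockout minus wild type, of each tested gene (1 point per gene) in 29 gene lists ordered by their median (orange bar), with the number tested in brackets; filled points passed an adjusted p of 0.05. Macrophage core genes lie furthest to the left with a median of -1.64, progenitor genes furthest to the right with 0.53, and a gene in several lists appears in each of them.

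Transcription factors changed on both sides. Of 38 myeloid factors, 9 fell and 4 rose (median -0.27). The 2 deepest falls were Id3 and Id2, inhibitors of basic helix-loop-helix factors, while their relative Id1, named after its values were seen, was higher in every knockout sample without passing the test (0.51, adjusted p = 0.463). Id3 had 3.36, 3.03 and 3.75 log2 in the knockout, against 7.17, 7.10 and 6.84 log2 in the wild type (change -3.66 ± 0.40, adjusted p = 7.24e-11). Id2 had 2.68, 3.51 and 4.16 log2 in the knockout and 6.56, 6.70 and 6.33 log2 in the wild type (change -3.08 ± 0.32, adjusted p = 1.22e-11). Pparg, a lipid-sensing nuclear receptor, changed by -2.54 ± 0.31 and Bach1, a repressor of haem oxygenase, by -1.04 ± 0.17. Spi1 had 8.50, 8.78 and 8.32 log2 in the knockout and 8.79, 8.81 and 8.43 log2 in the wild type, overlapping values (change -0.14, adjusted p = 0.69). The 4 rises were Nr4a1, an orphan nuclear receptor (1.44 ± 0.27), and, named after their values were seen, Sall3 (1.63), Cebpa, a factor of granulocyte and monocyte progenitors (0.80, adjusted p = 0.0142), and Bcl6, a repressor (0.61, adjusted p = 0.0435). The 4 rises became 2 or 3 when 1 sample was left out.

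Progenitor genes went the other way. Of 28 tested, 9 rose and 1 fell, with a median change of 0.53, and 18 did not pass. Their mean level was 4.89, 5.19 and 5.38 log2 in the knockout samples, against 4.55, 4.58 and 4.49 log2 in the wild type, without overlap. Kit had 6.12, 6.52 and 7.26 log2 in the knockout, against 5.24, 5.21 and 4.69 log2 in the wild type (change 1.59 ± 0.31, adjusted p = 0.000125). Gfi1b, a transcriptional repressor that acts in the erythroid and megakaryocytic lineages, had 6.83, 6.62 and 7.41 log2 in the knockout. In the wild type it had 4.01, 4.95 and 5.54 log2 (change 2.12 ± 0.40, adjusted p = 5.64e-05). Both were higher in every knockout sample, and the same held for Meis1, a homeobox factor of stem cells (1.50 ± 0.24), and Hmga2, a chromatin protein of fetal stem cells (1.40 ± 0.24). Gata2, a stem cell and mast cell factor, had 3.79, 5.07 and 5.30 log2 in the knockout, against 3.76, 3.56 and 2.87 log2 in the wild type (change 1.32 ± 0.39, adjusted p = 0.0166). It did not pass without knockout replicate 2 (adjusted p = 0.0965), without knockout replicate 3 (adjusted p = 0.159) or without wild-type replicate 3 (adjusted p = 0.131). Itga2b, which encodes the early haematopoietic integrin CD41, changed by 0.99 ± 0.27 and did not pass without wild-type replicate 1 (adjusted p = 0.232) or knockout replicate 3 (adjusted p = 0.108). Myb, which yolk sac macrophages do not need, had 7.41, 7.76 and 8.03 log2 in the knockout and 6.84, 6.81 and 6.73 log2 in the wild type (change 0.94 ± 0.34, adjusted p = 0.0656). Cd34 changed by 0.38 ± 0.30 (adjusted p = 0.548), and Gata1 by -0.06 ± 0.26 (adjusted p = 0.948).

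The largest rises of single genes were spread over many functions. Mrgpra2a, a receptor of the Mas-related family, had 8.51, 8.24 and 8.50 log2 in the knockout, against 5.55, 5.12 and 5.52 log2 in the wild type (change 3.02 ± 0.45, adjusted p = 3.99e-07). Angpt1, a ligand of the endothelial receptor Tie2, had 6.18, 5.81 and 6.46 log2 in the knockout and 2.87, 3.92 and 3.95 log2 in the wild type (change 2.57 ± 0.29). Flt1, a receptor for vascular endothelial growth factor, had 7.40, 7.54 and 7.58 log2 in the knockout and 5.03, 5.41 and 4.98 log2 in the wild type (change 2.37 ± 0.33). The genotypes did not overlap for these 3 genes, and wild-type replicate 1 of Angpt1 stood below the other wild-type samples. Slpi, a secreted inhibitor of neutrophil elastase, changed by 2.48 ± 0.53, Tuba8, an alpha tubulin, by 2.57 ± 0.31, Gpx8, a peroxidase of the endoplasmic reticulum, by 2.61 ± 0.42 and Prtg, protogenin, by 2.57 ± 0.21. Cd24a, a surface antigen of immature blood cells, had 6.35, 6.22 and 5.60 log2 in the knockout, against 4.56, 4.57 and 2.38 log2 in the wild type (change 2.22 ± 0.52, adjusted p = 0.0015). Its call rested on wild-type replicate 3, without which the change was 1.49 (adjusted p = 0.0773).

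Markers of other lineages that a sort could carry along had 0 to 3 calls a list, except the monocyte genes with 7. These lists held 13 to 29 tested genes, and of all genes tested 3.77% were called higher and 6.28% lower. Of 29 neutrophil granule genes, 1 rose and 0 fell (median 0.44), the 1 being Cxcr2. The number of rises was 0 or 1 with 1 sample left out and reached 6 under other processing settings. Without overlap, 7 of the 29 lay higher in the knockout and 0 lower, against 16.1% and 14.6% of all genes tested. The mean level of the neutrophil granule genes was 4.58, 4.44 and 4.38 log2 in the knockout samples. It was 3.64, 4.83 and 3.84 log2 in the wild type, where replicate 2 was above every knockout sample. The granule enzyme Mpo read 10.04, 10.40 and 10.38 log2 in the knockout and 9.68, 9.81 and 8.97 log2 in the wild type. The genotypes did not overlap, yet the change of 0.78 ± 0.79 did not pass (adjusted p = 0.677). Stfa1, named after its values were seen, read 11.40, 11.14 and 11.19 log2 against 9.90, 10.01 and 10.30 log2 (1.18 ± 0.65, adjusted p = 0.305, limma). These standard errors come from the spread pooled over all 27 groups, so not passing does not show that A2 was free of such cells. The 17 monocyte genes were split: 7 fell and 0 rose by the test (median -0.38), while 4 lay higher in the knockout without overlap and 7 lower. Among the falls were the chemokine receptor Ccr2 (-2.15 ± 0.32), the transglutaminase F13a1 (-2.55 ± 0.46) and S100a6 (-2.16 ± 0.41). Hp, named after its values were seen, read 9.31, 9.83 and 9.36 log2 in the knockout. In the wild type it read 8.35, 8.51 and 8.35 log2 (change 1.10 ± 0.51, adjusted p = 0.185, limma). Ly6c2 was at 2.74, 2.70 and 3.53 log2 in the knockout and 3.58, 5.19 and 3.44 log2 in the wild type (adjusted p = 0.405). Yolk sac endoderm genes, 24 tested with 0 called, had a mean level of 3.12, 2.92 and 4.07 log2 in the knockout and 3.06, 4.05 and 2.98 log2 in the wild type, so that 1 sample of each genotype stood higher. Erythroid genes, 14 tested with 0 called, had mean levels of 3.98, 3.09 and 4.10 log2 in the knockout and 4.36, 4.26 and 3.81 log2 in the wild type. The embryonic globin Hbb-bh1 was at 2.09 log2 in knockout replicate 2 and at 7.75 and 8.08 log2 in the other knockout samples, against 8.48, 8.38 and 7.50 log2 in the wild type. Of 20 endothelial genes, Flt1 and Plvap rose and Lyve1 fell, and of 14 megakaryocyte and platelet genes, Itga2b and the integrin chain Itgb3 (1.60 ± 0.31) rose and Pf4 fell. The other 17 endothelial and 11 megakaryocyte and platelet genes did not pass. Without overlap, 8 of the 20 endothelial genes lay higher in the knockout and 2 lower. Of the 14 megakaryocyte and platelet genes, 4 lay higher and 2 lower. The shares over all genes tested were 16.1% higher and 14.6% lower. The platelet glycoprotein gene Gp9 had 5.26, 6.21 and 6.36 log2 in the knockout and 4.31, 4.62 and 4.62 log2 in the wild type (change 1.43 ± 0.53, adjusted p = 0.0737), and the endothelial cadherin gene Cdh5 changed by -0.47 ± 0.42 (adjusted p = 0.626). The part of these cells in the rises above was not tested.

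Genes that respond to cell handling moved with genotype too. Of 21 immediate early and heat shock genes, 9 fell and 2 rose, with a median change of -0.52. Their mean level was 5.24, 5.30 and 5.20 log2 in the knockout samples, against 5.86, 5.69 and 5.96 log2 in the wild type, without overlap. Fos, a subunit of AP-1, had 3.33, 3.33 and 2.50 log2 in the knockout and 6.39, 5.48 and 6.28 log2 in the wild type (change -3.0 ± 0.29). Nr4a1 and Dusp2 went up in the same list. The part of this difference in the falls above was not tested. Among the sex-linked genes, Xist read 6.86, 7.86 and 8.79 log2 in the knockout and 3.88, 8.82 and 9.0 log2 in the wild type, so wild-type replicate 1 stood apart. The Y-linked gene Eif2s3y read 7.21, 6.91 and 6.07 log2 in the knockout and 6.37, 5.84 and 5.51 log2 in the wild type. Samples with high Xist therefore also held Y-linked signal. In all, 0 of 4 such genes passed.

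Maturation from A1 to A2 was compared within each genotype. In the knockout 644 genes (3.77%) differed between A2 and A1, 323 higher (1.89%) and 321 lower (1.88%) in A2, while in the wild type 1943 genes (11.4%) differed, 969 higher (5.67%) and 974 lower (5.70%). Of the 969 genes that were higher in A2 in the wild type, 236 (24.4%) were called higher in the knockout too, and these are 73.1% of the knockout's own list. Over those 969 genes, picked by their wild-type values, the median step was 0.32 in the knockout and 1.00 in the wild type. Of the 974 that were lower in wild-type A2, 234 (24%) were called in the knockout, and the median step was -0.44 in the knockout and -1.13 in the wild type. Progenitor genes showed this by name. Their median step to A2 was -0.66 in the knockout, with 11 of 28 called lower, and -1.93 in the wild type, with 22 of 28 called lower. Kit averaged 6.63 ± 0.58 log2 in A2 and 8.31 ± 0.19 log2 in A1 in the knockout, against 5.05 ± 0.31 log2 in A2 and 8.54 ± 0.13 log2 in A1 in the wild type. Macrophage core genes stepped up by a median of 0.34 in the knockout and 1.34 in the wild type. Slc40a1 was at 2.51 ± 0.15 log2 in A2 and 2.51 ± 0.44 log2 in A1 in the knockout, and at 8.30 ± 0.21 log2 in A2 and 3.88 ± 0.19 log2 in A1 in the wild type. Ctss was lower in A2 (3.61 ± 0.46 log2) than in A1 (5.92 ± 1.16 log2) in the knockout, and in the wild type it was at 8.66 ± 0.17 log2 in A2 and 8.36 ± 0.50 log2 in A1. Irf8 itself differed between the stages by 2.33 in the knockout and by 1.97 in the wild type.

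**Figure D3:**
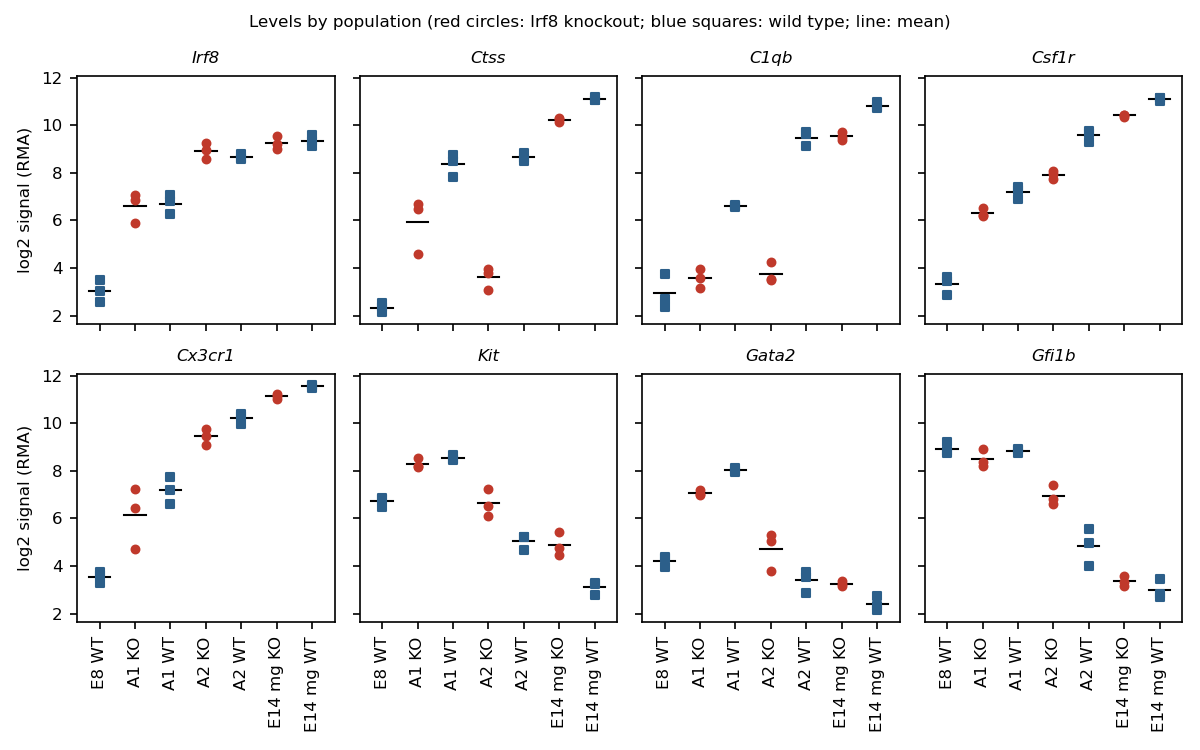
Log2 signal of 8 genes in each sample (circles, Irf8 knockout; squares, wild type; line, mean) from E8 progenitors through A1 and A2 to E14 microglia (E14 mg). In A2 the knockout samples of Ctss (3.09 to 3.94) and C1qb (3.50 to 4.26) lie far below the wild type, those of Kit (6.12 to 7.26) lie above it, and those of Irf8 overlap it.

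The effect of the knockout in A2 was then tested against that in A1. The difference of the effects passed for 283 genes (1.66%), 104 higher (0.608%) and 179 lower (1.05%) in A2. In A1 itself 574 genes were called (3.36%), 101 higher (0.591%) and 473 lower (2.77%). A2 and A1 share no samples. Of the 1074 genes that fell in A2, 267 also fell in A1, which is 24.9% of the A2 list and 56.4% of the A1 list. Of the 644 that rose in A2, 42 rose in A1, which is 6.52% of the A2 list and 41.6% of the A1 list. Several of these differences involve genes that were low in wild-type A1, where an array can read little of a fall: wild-type A1 averaged 3.88 log2 for Slc40a1, 4.10 log2 for Lyve1, 4.12 log2 for Id3 and 3.47 log2 for P2ry12. Slc40a1 changed by -5.78 ± 0.34 in A2 and by -1.37 in A1 (difference -4.41 ± 0.48, adjusted p = 1.47e-09), and both knockout means were 2.51 log2, below 3.041 log2. Lyve1 changed by -3.92 in A2 and by 1.03 in A1, where it did not pass (difference -4.95 ± 0.76, adjusted p = 9.96e-06). Id3 changed by -3.66 in A2 and -0.16 in A1 (difference -3.50 ± 0.56, adjusted p = 2.98e-05), and P2ry12, a purinergic receptor known from microglia, by -2.86 in A2 and 0.29 in A1 (difference -3.15 ± 0.54). On the other side, Slpi changed by 2.48 in A2 and -2.75 in A1 (difference 5.23 ± 0.75, adjusted p = 2.48e-06) and Nr4a1 by 1.44 in A2 and -1.43 in A1 (difference 2.86 ± 0.38). Of the 28 progenitor genes, 10 had a higher effect in A2 than in A1 by this test and 0 a lower one. Kit was at 1.59 in A2 and -0.23 in A1 (difference 1.82 ± 0.44, adjusted p = 0.0122). In A1 on its own, 0 of the 28 rose and 5 fell, with a median change of -0.26. Of the 40 macrophage core genes, 8 had a lower effect in A2 and 0 a higher one, while 19 fell in A1 on its own. Ccl2 fell in both, by 4.33 in A2 and by 4.08 in A1, and the difference did not pass (-0.25 ± 0.65, adjusted p = 0.98).

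**Figure D4:**
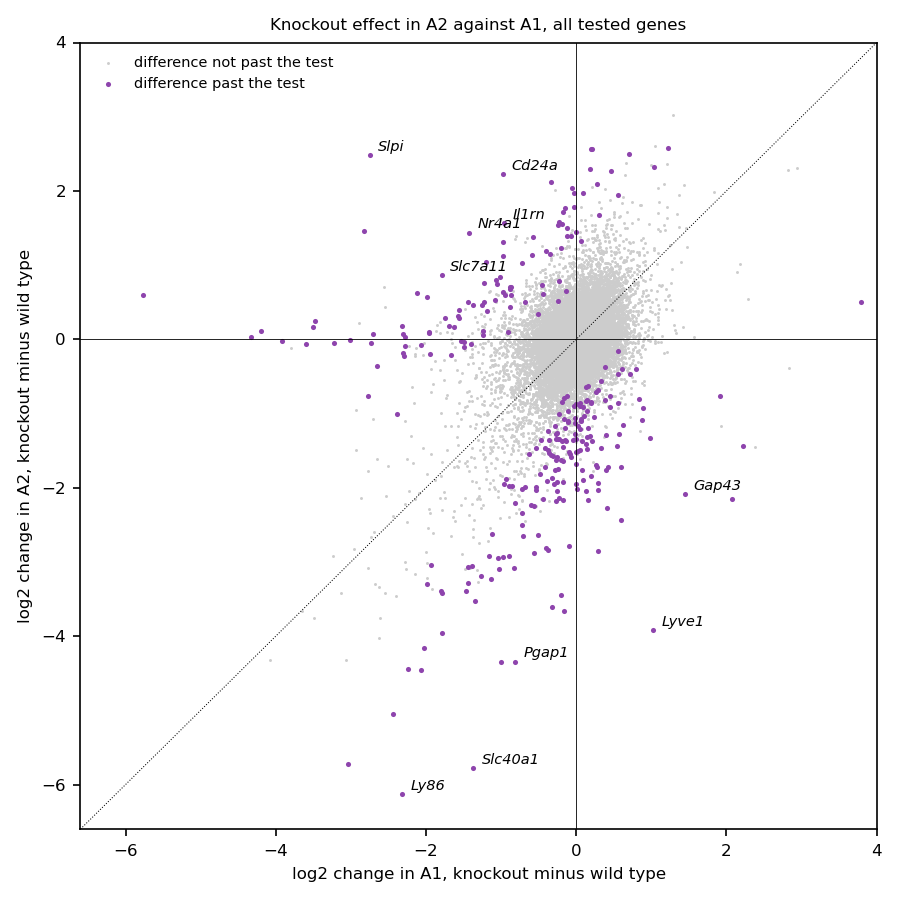
Log2 change, knockout minus wild type, in A2 (vertical axis) against A1 (horizontal axis) for each tested gene, with purple points for the 283 genes whose 2 effects differed at an adjusted p of 0.05 and a dotted line of equal effects. Slc40a1 and Ly86 lie below the line at -5.78 and -6.13 in A2, and Slpi lies above it at 2.48 in A2 and -2.75 in A1.

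The effect in A2 was also set beside that in fetal macrophages of brain and liver at E14. Of the 1074 genes that fell in A2, 563 fell in E14 Kupffer cells (52.4% of the A2 list and 33.6% of the Kupffer list) and 57 rose there. In E14 microglia 260 of them fell (24.2% of the A2 list and 25.4% of the microglia list) and 147 rose. Of the 644 genes that rose in A2, 316 rose in E14 Kupffer cells (49.1% of the A2 list and 14% of the Kupffer list) and 12 fell there. In E14 microglia 138 of the 644 rose (21.4% of the A2 list and 9.72% of the microglia list) and 19 fell. E14 Kupffer cells had 3933 called genes (23.0%), 13.2% higher and 9.81% lower, and E14 microglia 2442 (14.3%), 8.30% higher and 5.98% lower. The difference between the effects in A2 and in E14 microglia passed for 1458 genes (8.53%), 488 higher (2.85%) and 970 lower (5.67%) in A2, a split that was 620 higher and 784 lower with each array centred on its median. Ly86 fell in both, by 6.13 in A2 and by 5.08 in E14 microglia (difference -1.05 ± 0.88, adjusted p = 0.604). Ctss changed by -5.05 in A2 and -0.87 in microglia (difference -4.18 ± 0.34, adjusted p = 3.33e-15), and Timd4 by -4.45 in A2 and 1.74 in microglia (difference -6.19 ± 0.56, adjusted p = 3.15e-13). Ccl2 changed by -4.33 in A2 and 2.65 in microglia (difference -6.97 ± 0.65, adjusted p = 5.71e-13). Id2, Id3 and Pparg also had opposite directions, at -3.08, -3.66 and -2.54 in A2 and at 1.69, 1.67 and 2.07 in microglia. Mrgpra2a rose in all 3 of A2 (3.02), E14 microglia (5.67) and E14 Kupffer cells (3.31). The rise of progenitor genes was not particular to A2. Of the 28, 14 rose and 2 fell in E14 Kupffer cells (median 0.97, against 0.53 in A2). In E14 microglia 6 rose and 1 fell (median 0.24). Kit changed by 1.59 in A2, 2.13 in E14 Kupffer cells and 1.76 in E14 microglia. Markers of other cells moved with genotype in E14 microglia: 25 of 29 neutrophil granule genes were called higher there, with a median of 3.14, and 14 of 17 monocyte genes, with a median of 2.19. Their part in the difference from A2 was not tested. In E14 Kupffer cells 19 of 21 immediate early and heat shock genes were called higher, with a median of 1.74, against -0.52 in A2.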

How the data were processed

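RNA of sorted cells was isolated with PicoPure, amplified with the Ovation PicoSL WTA System V2 and biotin-labelled, per the labels' protocols. Per the submitters' processing notes, the authors used RMA and Affymetrix Expression Console, and the deposited values are on a log2 scale. No version or genome build is given in the sources used here. Of 41345 probes, 23521 had exactly 1 gene symbol, 1814 had several and 16010 were not in the probe table. For 23328 the gene ID matched RefSeq, and 0 symbols changed. The probe with the highest mean was kept for each of the 22180 genes, of which 1082 had more than 1 probe. Genes above 3.041 log2, the 50th percentile of the table, in at least 2 arrays were tested, 17099 in all. Group means over all 27 groups and 80 samples were fitted with limma 3.58.1 in R 4.3.3 (lmFit, eBayes with intensity trend, 53 residual degrees of freedom), because 3 samples alone estimate the spread poorly. P-values were adjusted by Benjamini-Hochberg over all genes tested. The number of arrays limits the precision.

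Genes named are Irf8, the markers, the 15 largest rises and falls of called genes whose samples did not overlap (predicted genes, clones and small RNAs left out, 86 of the called genes), up to 4 called members of each list by adjusted p, and the 5 largest differences of effects in each direction by the same rule. The members and lists were chosen with earlier results of these data known. Symbols were matched to RefSeq GRCm38.p6 promoter windows. Alternatives covered the samples fitted, array weights, robust eBayes, a replicate block, normalization, the filter, the probe rule, each array of knockout replicate 2 alone and each A2 sample left out. The fit was tested on simulated data of 17099 genes: it called 55% of the genes given a shift of 1 and 98% of those given a shift of 2 (log2), and 10 unshifted genes. The simulated noise was independent and normal, with the same spread for a gene in every group, as the fit assumes. The 10 calls are therefore no error rate for the real data.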

Additional observations from a re-analysis of the deposited data

Results flagged for a closer look

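Several results differed between populations by a test of the difference itself. The effect of the knockout in A2 differed from that in A1 for 283 genes. The largest differences, A2 effect minus A1 effect on the log2 scale, were -4.95 for Lyve1, -4.41 for Slc40a1, -3.80 for Ly86, -3.54 for Pgap1, which remodels GPI anchors, and -3.54 for Gap43, a growth cone protein. Lyve1 and Slc40a1 were low in wild-type A1, at 4.10 and 3.88 log2, which bounds the fall that A1 could show. Gap43 changed by -2.09 in A2 and by 1.45 in A1, both past the test. In the other direction they were 5.23 for Slpi, 3.20 for Cd24a, 2.86 for Nr4a1, 2.65 for Slc7a11, the cystine transporter, and 2.53 for Il1rn. Slc7a11 did not pass in A2 (0.86, adjusted p = 0.32) and fell in A1 by 1.79.

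The effect in A2 differed from that in E14 microglia for 1458 genes. Differences were -6.97 for Ccl2, -6.48 for Lyve1, -6.30 for Pf4, -6.22 for S100a6 and -6.20 for Ifitm6, genes that fell in A2 and rose in E14 microglia. They were 4.38 for Adgrg1, 3.57 for Plxdc1, 3.50 for Ecscr, 3.35 for Atp8a2 and 2.96 for Slc24a3. Plxdc1 was below 3.041 log2 in A2, averaging 2.32 log2 in the knockout and 2.63 log2 in the wild type, so that a fall could not be read there. Of these last 5 genes, Slc24a3 passed in A2 on its own (1.78 ± 0.27, adjusted p = 1.15e-06), and all 5 fell in E14 microglia.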

How the results depend on the processing

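The count of 1718 genes in A2 became 2321 (1108 higher, 1213 lower) when only the compared groups were fitted, 2705 (1354 higher, 1351 lower) with only the yolk sac groups and 3195 with array weights. In those fits 1568, 1650 and 1715 of the 1718 genes passed again. The difference between A2 and A1 gave 529, 520 and 860 genes under those fits, and that between A2 and E14 microglia gave 2444 with only the compared groups and 2847 with array weights. The cause of these larger counts was not tested. With 1 A2 sample left out, the counts ran from 1183 to 1469 for A2, from 197 to 266 against A1 and from 1177 to 1315 against E14 microglia. A replicate block gave 1702, 282 and 1426. Same-numbered samples deviated with correlations of -0.028, 0.011 and -0.017, and differently numbered ones with -0.048 to 0.061. These values showed no pairing by number, but they cannot exclude that samples were paired. The other alternatives kept each count within 1.5 times. Of 101 named genes called in A2, 91 passed in all 19 alternatives and 0 reversed. The 10 lost in at least 1 were Itga2b, Irf2, Cxcr2, Gata2, Irf9, Irf7, Plvap, Cd79b, Tgfb1 and Cd24a. Many knockout values lie near the bottom of the scale, where array signal bounds how large a fall can read.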

Other observations

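Of 20 microglia signature genes tested, 7 fell and 1 rose in A2 (median -0.36), and in E14 microglia 10 fell and 0 rose (median -1.0). P2ry12, a purinergic receptor, had 4.80, 4.35 and 4.22 log2 in the knockout, against 7.74, 7.31 and 6.89 log2 in the wild type, and Selplg, a selectin ligand, had 4.78, 5.22 and 5.88 log2 in the knockout, against 7.63, 7.76 and 7.40 log2 in the wild type. Bin1, a membrane-bending protein, changed by -1.84 ± 0.24. The 1 rise, Gpr84, a receptor for medium-chain fatty acids named after its values were seen, changed by 1.69 (adjusted p = 0.000127).

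Of 24 matrix metalloproteinases, their inhibitors and integrins, 6 fell and 1 rose in A2 (median -0.08). Timp2, a metalloproteinase inhibitor, changed by -2.05 ± 0.32, Adam15, a membrane protease, by -1.35 ± 0.18, and Itgal, the alpha chain of LFA-1, by -1.17 ± 0.22. Itgb3, an integrin of platelets and myeloid cells, had 6.11, 6.13 and 6.41 log2 in the knockout, against 4.60, 4.60 and 4.64 log2 in the wild type. Of 18 apoptosis regulators, Casp1, Casp8 (-0.89 ± 0.19) and Apaf1 (-0.95 ± 0.17) fell and 0 rose, and Bcl2 was not past the test (-0.10, adjusted p = 0.93).

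Lists with few or no calls in A2 were basophil and mast cell genes (1 higher, 1 lower of 13), lymphoid genes (1 lower of 13, Cd79b) and mesenchymal genes (0 of 13). The called shares of all genes tested were 3.77% higher and 6.28% lower.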
